A study of Sus scrofa with 6 samples.

Results

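The microRNAs of the deciduous premolar germ were set against those of the deciduous incisor germ in miniature pig embryos of day 60. Both RNAs were hybridised together on 1 of the 6 arrays of the series, and its 742 probes for small RNAs were all taken into account. The premolar RNA carried Cy5 and the incisor RNA Cy3, per the labels. The whole series covers 4 tooth types on days 40, 50 and 60, with 12 RNAs and 1 RNA per condition. No genotype or treatment is named in the labels, which call the embryos miniature pig only, and they leave unsaid if a sample pools more than 1 germ. Because each RNA was measured once, differences are given by their size and by the spread of the 4 spots of a probe. Such spots repeat the printing and hybridisation of one RNA, so they say nothing about the spread between embryos, and no test between tooth types was possible.

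A microRNA is a short RNA that lowers the output of messenger RNAs, which it finds mainly by pairing through its seed, bases 2 to 8 from its 5′ end. Tooth germs form from an oral epithelium folding into a mesenchyme of neural crest origin, and the shape of the crown is set by signals passing between these tissues. Epithelium and mesenchyme carry different microRNAs: miR-200 family members, miR-203 and miR-205 are typical of epithelia, while miR-199a, miR-214, miR-143 and miR-145 are typical of mesenchymal tissues. The jaw around a germ also holds developing skeletal muscle, which is known for miR-1, miR-133 and miR-206. The germs are bulk tissue, so fewer cells of a type and less RNA per cell cannot be told apart.

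The first sequences shown are those of the microRNAs that read highest in the premolar relative to the incisor, together with relatives that share their seed. All sequences are the targets given in the deposited files for the probes, 5′ to 3′, with the seed in capitals. Probes whose names begin with ssc are for known mature pig microRNAs, and those beginning with miR, PN or PC are custom probes; what PN and PC stand for is not given in the sources used here.
PN-377-3p-18696: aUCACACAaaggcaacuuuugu
PN-300-3p-13997: uAUACAAGgacaagcucucu
PN-381-3p-1991: uAUACAAGgacaagcucucugu
ssc-miR-133b: uUUGGUCCccuucaaccagcuau
ssc-miR-133a: uUGGUCCCcuucaaccagcug
ssc-miR-206: uGGAAUGUaaggaaguguguga
PN-1-3p-13186: uGGAAUGUaaggaaguguguau
ssc-miR-1: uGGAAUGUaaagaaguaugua
The target of PN-300-3p-13997 is 20 bases long and forms the first 20 bases of the PN-381-3p-1991 target, so these probes cannot be taken as separate measurements. Likewise, the PN-1-3p-13186 target shares its first 20 of 22 bases with miR-206, and its first 10 with miR-1. A reading of PN-1-3p-13186 can therefore not be told apart from one of miR-206.

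The next set holds the members of the group with the seed AGCAGCA, the seed of miR-15 and miR-16, which are known to restrain the cell cycle and the survival factor BCL2. They are shown because members with one seed read differently here.
ssc-miR-15a: uAGCAGCAcauaaugguuugu
ssc-miR-195: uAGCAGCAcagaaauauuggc
ssc-miR-16: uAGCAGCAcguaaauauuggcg
ssc-miR-15b: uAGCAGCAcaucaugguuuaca
ssc-miR-497: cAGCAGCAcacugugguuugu
Pairs of relatives outside these groups are shown for the probes that read lowest in the premolar and for the epithelial probes that read highest.
miR-218-5p-18206: gGUGGAACgauggaaacggaac
miR-218-5p-53526: uUGUGCUUgaucuaaccaugug
miR-1308-3p-49420: gCAUUGUGguucagug
ssc-miR-1308: gCAUUGGUgguucagugguagaauuc
PN-200a-3p-145: uAACACUGucugguaacgauguu
PN-141-3p-21462: uAACACUGucugguaaagaugu
The probes named for miR-218-5p share no seed and 0 first bases, so the name alone does not make them the same RNA. The targets of PN-200a-3p-145 and PN-141-3p-21462, by contrast, have their first 16 bases in common.

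The array has 3968 spots, of which 2968 are for the 742 small RNA probes at 4 spots each and 716 are blank. Blank spots had a median intensity of 49.6 in the premolar channel and 242 in the incisor channel, and the brightest spots read 39059 and 55006 before background was removed. A mean over 3 SD of the blank spots above the local background counted as detection. By this measure 346 probes were detected in the premolar and 353 in the incisor, 321 in both, 25 in the premolar alone and 32 in the incisor alone. For 364 probes neither RNA was above background. The 4 control probes for 5S ribosomal RNA averaged -0.95 as log2 premolar over incisor, and their part in the ratios below was not tested. Densities given below are spot intensities with the local blank background taken off, before the channels were normalised to each other. Ratios are log2 premolar over incisor after normalisation, as means ± SD of the 4 spots.

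Most microRNAs read alike in the premolar and the incisor germ. Over the 378 probes detected in at least 1 of the RNAs, the median ratio was 0.06, with a 5th percentile of -0.45 and a 95th of 1.31. Of these 378 probes, 322 (85.2%) lay within 0.5 of 0, and 349 (92.3%) lay within 1. The largest differences ran far beyond this range, from -3.58 to 3.83. The upper tail was the longer one, and it holds mainly microRNAs known from muscle, from one imprinted gene region and from the seed group of miR-15.

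The error of a ratio depended on brightness. The SD of the 4 spots had a median of 0.13 and a 95th percentile of 0.267. It was 0.16 for the 151 probes with a mean log2 intensity below 7, and 0.096 for the 103 probes above 9. All 4 spots lay above 0 for 132 detected probes (34.9%) and below 0 for 90 (23.8%), whereas the spots of 156 probes fell on both sides of 0. The probes whose spots differed most were dim: PC-5p-53374 read -0.02 ± 0.50, PN-429-3p-6578 read 0.15 ± 0.43 and ssc-miR-542-5p read 0.49 ± 0.42. All 3 have spots on both sides of 0.

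Probes were listed when all 4 spots were at least 2-fold apart in one direction. Of the 378 detected probes, 25 (6.61%) were higher in the premolar by this measure and 2 (0.529%) were lower. Among the mature pig probes, 11 of 115 detected (9.57%) were higher and 0 were lower. The 25 probes carry 17 microRNA names, since several names have more than 1 probe. The weakest single spot among them read 1.11, and 2 further probes averaged above 1 without reaching it in all spots, miR-345-5p-26266 at 1.19 ± 0.26 and PN-141-3p-21462 at 1.16 ± 0.22. The 25 targets had a median GC content of 42.9%, against 50.0% for the other detected probes, and a median length of 22 bases in both sets.

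**Figure D1:**
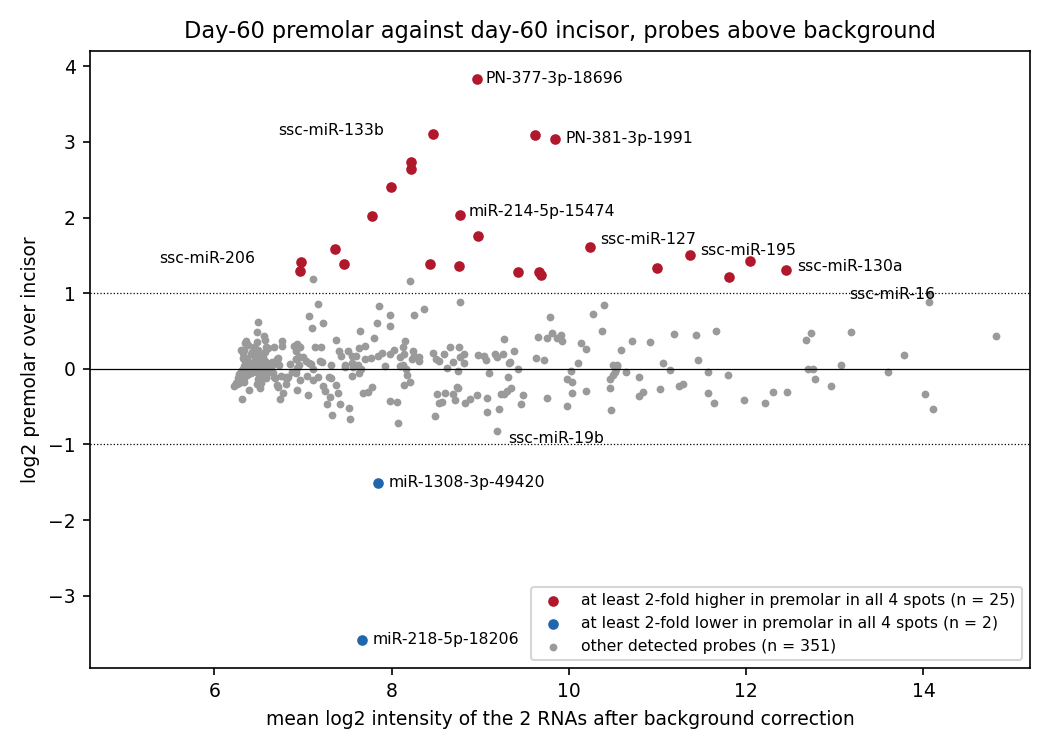
Log2 ratio of premolar over incisor on day 60 (vertical axis) against the mean log2 intensity of both RNAs (horizontal axis) for the 378 detected probes; points are means of 4 spots and dotted lines mark 2-fold. The 25 probes higher in the premolar lie above the upper line at all intensities beyond the dimmest, while only 2 probes lie below the lower line in all 4 spots.

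Probes with overlapping targets give a check on these ratios. In 76 pairs one target lies wholly within the other and both were detected in both RNAs. The paired ratios differed by a median of 0.099 and by less than 0.3 in 67 pairs. The widest gap was 0.43, between the probes for miR-504. Pairs with a probe not detected in both RNAs were left out, so some pairs that disagree are missing. The 16-base target of miR-206-3p-33411 begins that of ssc-miR-206. The short probe read 0.03, not above background, and the long one 1.41. Only for the pairs kept can it be said that they mostly read alike.

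Muscle microRNAs of the miR-133 and miR-206 kinds read higher in the premolar. Of 12 probes in the skeletal muscle list, 6 were detected in the premolar and 4 in the incisor, and these 6 met the 2-fold criterion. Over all detected probes 6.61% met it upward. The probes for miR-206 and miR-1 passed detection through the premolar alone, so a difference was part of their being counted. All 12 probes had a median ratio of 0.66, against -0.00 on the whole array, and the mature pig probes of the list, most of them not above background, had a median of 0.03. miR-133a and miR-133b are made in striated muscle, where they influence myoblast proliferation. ssc-miR-133b had densities of 981, 810, 960 and 1021 in the premolar, against 35.4, 37.3, 66.2 and 81.1 in the incisor. The lowest premolar spot lay above the highest incisor spot, as listing at 2-fold in all spots largely requires. The ratio was 3.10 ± 0.21. ssc-miR-133a had densities of 691, 609, 731 and 671 in the premolar, against 44.0, 43.2, 52.3 and 55.8 in the incisor, a ratio of 2.73 ± 0.09. The custom probes gave 2.64 ± 0.10 (miR-133a-3p-1466) and 2.40 ± 0.08 (miR-133b-3p-56920). The target of miR-133b-3p-56920 contains the whole targets of ssc-miR-133a and miR-133a-3p-1466, so the miR-133 probes are not separate measurements and this one is no second reading of miR-133b.

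miR-206, which is made in skeletal muscle and hardly in heart, was above background in the premolar alone. ssc-miR-206 had densities of 103, 115, 114 and 160 in the premolar, against 18.7, 20.6, 20.6 and 2.83 in the incisor, where it was not above background. Against the lowest detected level of the incisor it was at least 2.59-fold higher in the premolar, and the measured ratio was 1.41 ± 0.33. One spot, at 1.90, stood above the other 3, which read 1.21 to 1.27. PN-1-3p-13186, whose target matches miR-206 better than miR-1, had densities of 110, 129, 74.2 and 148 in the premolar, against 8.05 to 28.9 in the incisor, where it was not above background. It was at least 2.45-fold higher in the premolar (1.29 ± 0.10). In the pig annotation of RefSeq (Sscrofa11.1), the genes MIR206 and MIR133B are neighbours.

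Not every muscle microRNA was seen. The probes ssc-miR-1, miR-1-3p-9331, ssc-miR-208b and ssc-miR-499 were not above background in either RNA, and neither were ssc-miR-133a* and a 16-base probe for miR-206. miR-1 is the most abundant microRNA of adult striated muscle, and miR-208b and miR-499 are encoded within slow and cardiac myosin genes. The mean densities of the 12 probes, with negative ones left out, added up to 3008 in the premolar and 289 in the incisor. These are sums of 1 RNA each, in which the overlapping miR-133 probes are all counted. The part that muscle tissue taken along with a germ had in them was not tested.

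microRNAs of the imprinted DLK1-DIO3 region held the largest ratio of the array. Its microRNAs are expressed from the maternal chromosome, many of them from one long cluster. Of 58 probes in this list 33 were detected in the premolar and 26 in the incisor. The 2-fold criterion was met upward by 4 of them, of which PN-300-3p-13997 and PN-381-3p-1991 are not separate measurements, and downward by none; over all detected probes the shares are 6.61% and 0.529%. All 4 spots lay above 0 in 24 and below 0 in 1, where the shares over all detected probes are 34.9% and 23.8%. Of the 33 detected probes, those beyond the 26 also detected in the incisor passed through the premolar alone. For these a difference was part of their being counted, here and in the median over detected probes. The median over all 58 was 0.14, against -0.00 for the whole array. It was 0.07 under median centring, 0.08 with loess on probes detected in both RNAs and 0.04 with the blank median subtracted. It was larger with a normexp offset of 16 (0.22), over detected probes alone (0.29) and by the authors' processed values (0.66). A few probes of the region thus read far above the others, whose typical ratio was smaller and moved with the processing.

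PN-377-3p-18696 had the largest ratio on the array. Its densities were 1945, 1654, 1874 and 1595 in the premolar, against 59.3, 63.2, 59.5 and 74.8 in the incisor, a 14.3-fold difference (3.83 ± 0.20). PN-300-3p-13997 had 2118, 2003, 2175 and 2344 in the premolar, against 225, 207, 175 and 223 in the incisor (3.09 ± 0.14). PN-381-3p-1991, which overlaps it, had 2456, 2369, 2478 and 2572 in the premolar, against 267, 254, 226 and 292 in the incisor (3.04 ± 0.11). For all of these the lowest premolar spot exceeded the highest incisor spot, as listing at 2-fold in all spots largely requires.

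The opposite arms of the same precursors did not share these ratios. PN-377-5p-6676 read 0.44 ± 0.23 and PN-381-5p-15017 read 0.08 ± 0.20, both dim; they were picked with their values in view. ssc-miR-127, which is transcribed antisense to the RTL1 gene and can cleave its messenger, had densities of 1901, 2085, 1904 and 1929 in the premolar, against 592 to 710 in the incisor. Its ratio was 1.61 ± 0.09. Its RefSeq neighbours behaved otherwise: ssc-miR-432 read 0.22 ± 0.07 and ssc-miR-136 was not above background in either RNA. PN-409-3p-335, the lowest of the list, read -0.29 ± 0.19, and PN-411-3p-3887 read -0.05 ± 0.15 with spots on both sides of 0.

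**Figure D2:**
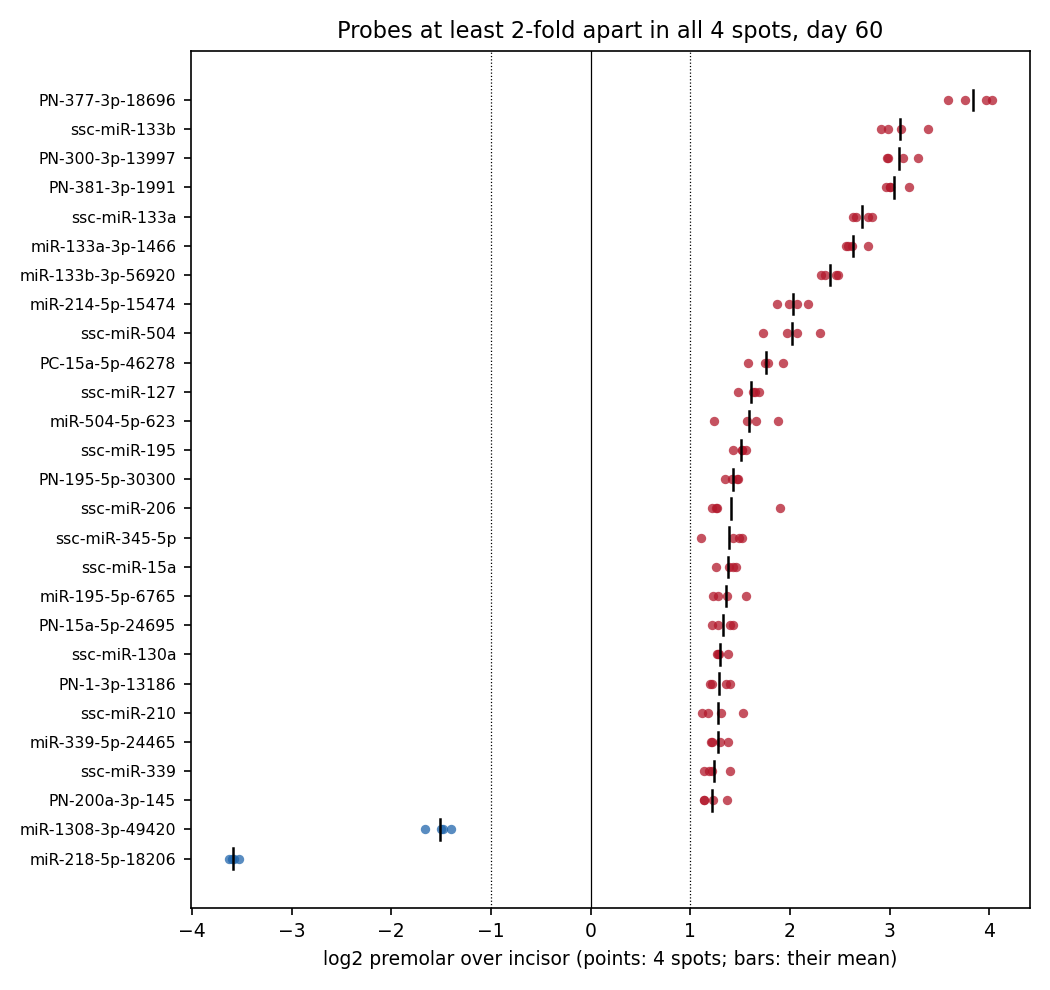
Log2 ratio of premolar over incisor in each of the 4 spots (points) and their mean (bars) for the 27 probes at least 2-fold apart in all spots, day 60. PN-377-3p-18696, at 3.83, the miR-133 probes and the PN-300-3p and PN-381-3p probes stand at the top, and miR-218-5p-18206, at -3.58, at the bottom.

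Among the relatives of miR-15 and miR-16, probes for miR-15a, miR-195 and miR-16 read higher in the premolar, and those for miR-15b and miR-497 did not. The list has 14 probes, of which 13 carry the seed AGCAGCA and ssc-miR-424* is the opposite arm. The 11 detected probes, all with this seed, had a median ratio of 1.33 and all 14 a median of 0.93. Of the 11, 6 met the 2-fold criterion and 9 had all 4 spots above 0. Over all detected probes the shares are 6.61% and 34.9%. The mature pig probes alone had a median of 0.20. ssc-miR-195 had densities of 4931, 3729, 3462 and 4563 in the premolar, against 1892, 1505, 1302 and 1692 in the incisor (1.51 ± 0.06). ssc-miR-15a had 475, 454, 444 and 546 in the premolar, against 169, 135, 137 and 165 in the incisor (1.38 ± 0.09). The other 4 probes for these names lay between 1.33 ± 0.10 (PN-15a-5p-24695) and 1.76 ± 0.15 (PC-15a-5p-46278).

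ssc-miR-16 fell just short of 2-fold with almost no spread. Its densities were 21943, 20072, 21218 and 21627 in the premolar, against 14081, 12897, 13691 and 13902 in the incisor, a ratio of 0.88 with an SD of 0.0040. ssc-miR-15b read 0.20 ± 0.11, ssc-miR-497 read 0.05 ± 0.20 and miR-497-5p-5546 read 0.03 ± 0.12. In RefSeq, MIR15A neighbours MIR16-2, MIR15B neighbours MIR16-1 and MIR195 neighbours MIR497. Probes for the neighbours miR-195 and miR-497 thus differed, while those for miR-15a and miR-16 both read higher. The array cannot say from which gene the mature miR-16 came. The ssc-miR-195 and ssc-miR-16 targets share their first 9 bases and most of the rest, and ssc-miR-16 was far brighter. How far the miR-195 probes read miR-16 was not tested. The 3 probes for miR-424 were not above background in either RNA.

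The remaining microRNAs higher in the premolar belong to none of these groups. ssc-miR-504 had densities of 356, 358, 313 and 411 in the premolar, against 46.0, 38.8, 53.3 and 34.1 in the incisor (2.02 ± 0.24). ssc-miR-210, known for its induction by low oxygen through HIF1A, had 955, 988, 1007 and 948 in the premolar, against 304, 444, 390 and 405 in the incisor (1.28 ± 0.18). ssc-miR-130a, of the family that also holds miR-301, had 8455, 7425, 8316 and 8464 in the premolar, against 3702, 3492, 3888 and 3972 in the incisor (1.30 ± 0.05). In each case every premolar spot lay above every incisor spot, as listing at 2-fold in all spots largely requires.

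ssc-miR-130b, named because it shares the seed of ssc-miR-130a, read 0.11 ± 0.06. ssc-miR-339 had densities of 1118, 1152, 1114 and 1248 in the premolar, against 484, 523, 468 and 461 in the incisor (1.24 ± 0.12). ssc-miR-345-5p had 215, 212, 191 and 206 in the premolar, against 41.3, 44.2, 31.0 and 68.2 in the incisor (1.39 ± 0.19). Premolar and incisor spots again did not overlap for either probe, which the listing largely requires.

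Epithelial microRNAs gave a split picture. Of 24 probes in the epithelial list 17 were detected in both RNAs, with a median ratio of 0.13 over these and 0.07 over all 24. The 2-fold criterion was met by 1 of the 17, near the 6.61% over all detected probes. PN-200a-3p-145 had densities of 4993, 4867, 4985 and 5502 in the premolar, against 2542, 2473, 2362 and 2370 in the incisor (1.22 ± 0.11). PN-141-3p-21462, which shares its first 16 bases, had 414, 332, 372 and 336 in the premolar, against 152, 124, 105 and 161 in the incisor (1.16 ± 0.22). The miR-200 family represses the transcription factors ZEB1 and ZEB2 and so favours the epithelial state.

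The miR-200 family members with the other seed did not follow. The 6 probes of the AAUACUG seed, for miR-200b, miR-200c and miR-429, had a median of 0.14 and ran from -0.05 to 0.17. ssc-miR-205, a microRNA of basal epithelium, had densities of 2443, 2597, 2443 and 2536 in the premolar, against 4108, 3895, 3530 and 4112 in the incisor (-0.46 ± 0.10). PN-203-3p-308, for a microRNA of differentiating epithelium, read -0.40 ± 0.13 and was dim. The 3 miR-205 probes had a median of -0.31, which was -0.02 when the array was centred on its median instead of by loess.

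Mesenchymal and skeletal microRNAs were mostly close to even. Of 53 probes 31 were detected, with a median of -0.06 over these and -0.02 over all. The 2-fold criterion was met upward by 1 and downward by 1, against 6.61% and 0.529% over all detected probes. The 4 spots were all above 0 for 8 and all below for 11, where the shares over all detected probes are 34.9% and 23.8%. All 31 were detected in the incisor but only 26 in the premolar, so some were counted through the incisor alone. miR-214-5p-15474, for the minor arm of a precursor transcribed together with miR-199a, had densities of 756, 835, 817 and 767 in the premolar, against 121, 168, 151 and 169 in the incisor (2.03 ± 0.13). The major arm did not share this: ssc-miR-214 had 8134, 7798, 8124 and 8106 in the premolar, against 8768, 9521, 9133 and 8841 in the incisor, a ratio of 0.05 ± 0.08 with spots on both sides of 0. miR-145-5p-234, for a microRNA known from smooth muscle and mesenchyme, read 0.84 ± 0.12, whereas miR-21-5p-44 read -0.44 ± 0.09. The mature pig probes with overlapping targets differed: ssc-miR-145 read 0.41, and ssc-miR-21 was not above background in either RNA (-0.09). Among the markers of the germ's own tissues, probes for miR-199a, miR-214, miR-143 and miR-145 and for miR-200a, miR-200b, miR-200c, miR-141, miR-203 and miR-205 were above background in both RNAs.

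**Figure D3:**
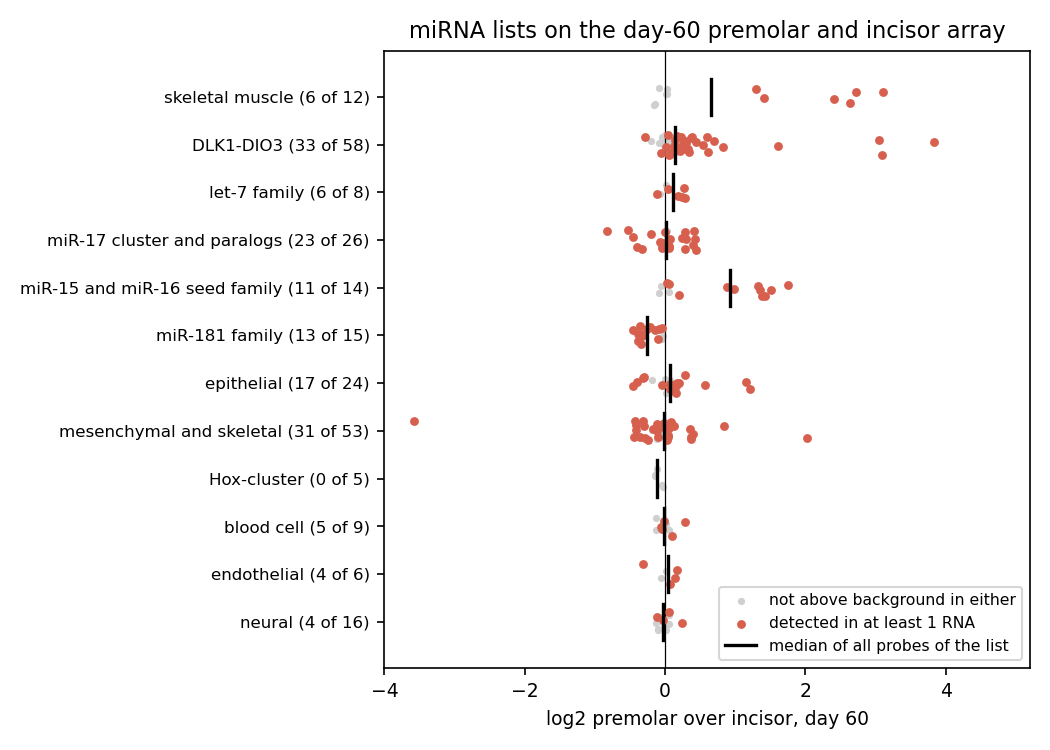
Log2 ratio of premolar over incisor, day 60, for every probe of 12 microRNA lists (red: detected in at least 1 RNA; grey: not above background in either; bars: median of all probes of the list; detected of all probes in brackets). The detected skeletal muscle probes lie between 1.29 and 3.10, and the detected miR-181 probes all lie below 0, which changes under median centring (median of all 15 probes 0.04).

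Only 2 probes were at least 2-fold lower in the premolar in all spots. miR-218-5p-18206 had densities of -4.33, -4.29, -3.21 and -5.56 in the premolar, where it was not above background, against 647, 679, 686 and 680 in the incisor. It was at least 8.53-fold lower in the premolar. This probe read lower in the right-hand density column than in the left on all 6 arrays, by log2 values of -1.21 to -3.79, whichever tooth type that column held, and the premolar is in the right-hand column here. Tooth type and column cannot be told apart for it on this array, and miR-218-5p-53526, a probe with another target, read 0.05 ± 0.03.

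miR-1308-3p-49420 had densities of 75.3, 49.4, 74.6 and 79.7 in the premolar, against 324, 277, 343 and 412 in the incisor (-1.51 ± 0.11). The longer ssc-miR-1308 had 13560, 12273, 13850 and 13968 in the premolar, against 21629, 23101, 24038 and 24080 in the incisor (-0.54 ± 0.10). In human annotation miR-1308 was withdrawn because its sequence is a fragment of a transfer RNA. Its probes are thus lower in the premolar in all spots, to different degrees.

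Several families read slightly lower in the premolar, and these readings hang on the normalisation. The miR-181 family, known from lymphoid and muscle differentiation, had 13 of 15 probes detected. All 4 spots lay below 0 in 10, where the share over all detected probes is 23.8%. The family had a median of -0.33 over the detected probes and -0.25 over all, which became 0.04 under median centring. Its lowest probes were miR-181a-5p-39722 at -0.46 ± 0.14 and ssc-miR-181b at -0.38 ± 0.10, and its highest ssc-miR-181a at -0.09 ± 0.02 and miR-181c-3p-6759 at -0.04 ± 0.08. Groups sharing the seeds of miR-27 (-0.41), miR-17 (-0.37) and miR-103 (-0.36) moved to -0.08, -0.00 and -0.03 under median centring. This centring put the median of all detected probes at 0.16 in place of 0.06, and it shifted probes with a mean log2 intensity above 9 by 0.35 and those below 7 by -0.08. A lower level of these families in the premolar is therefore not a reading that holds under both normalisations.

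The miR-17 cluster and its paralogs, which promote proliferation, had 23 of 26 probes detected, none 2-fold apart, and a median of 0.05 over the detected probes and 0.02 over all. All 4 spots lay above 0 in 9 and below 0 in 7, where the shares over all detected probes are 34.9% and 23.8%. ssc-miR-92a read 0.45 ± 0.08 and PN-92a-3p-3446 read 0.42 ± 0.09, while miR-20b-5p-17250 read -0.52 ± 0.07. ssc-miR-19b had densities of 383, 354, 333 and 400 in the premolar, against 798, 698, 642 and 799.5 in the incisor (-0.82 ± 0.05). The members thus lay on both sides of 0.

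Among the let-7 family, whose members accumulate as tissues differentiate, 6 of 8 probes were detected with a median of 0.21, 0.11 over all 8. They ran from ssc-let-7e at -0.11 ± 0.16 and ssc-let-7c at 0.04 ± 0.22 to ssc-let-7g at 0.27 ± 0.09 and ssc-let-7a at 0.29 ± 0.15. No member was 2-fold apart, and 3 had all 4 spots above 0, where the share over all detected probes is 34.9%. The list was matched by name and leaves out custom probes for let-7 with other names: by the seed GAGGUAG there are 13 probes, of which 11 were detected, with a median of 0.19 and all 4 spots above 0 in 7. Custom probes whose targets overlap those of let-7 reached from -0.32 (PC-7e-5p-58372) to 0.39 (PN-7a-5p-541).

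Normalised ratios of blood and vessel markers were near even. Of 9 blood cell probes 5 were detected, with a median of -0.01 over these and over all 9; miR-451-5p-792, of red cells, read 0.29 ± 0.09, miR-155-5p-11894 read 0.10 ± 0.16, ssc-miR-486 read -0.04 ± 0.04 and PN-223-3p-48223 read -0.06 ± 0.20. Of 6 endothelial probes 4 were detected, with a median of 0.11, or 0.05 over all 6. The endothelial miR-126-3p-3530 read 0.17 ± 0.13, miR-221-3p-121 read 0.14 ± 0.04, ssc-miR-221 read 0.08 ± 0.08 and ssc-miR-222 read -0.31 ± 0.07. Of the blood cell probes 2 were above background in the premolar and 4 in the incisor. The detected blood and vessel probes thus had far smaller ratios than the detected muscle probes, all of which met the 2-fold criterion. Those muscle probes are the miR-133 probes, which are not separate measurements, and ssc-miR-206 and PN-1-3p-13186. The latter passed detection through the premolar alone, so part of this contrast comes from the detection rule. Muscle probes not above background also read near even.

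Of 16 neural probes 4 were detected, with a median of 0.02, or -0.02 over all 16; PN-7-3p-8724 read 0.25 ± 0.27, ssc-miR-128 read 0.06 ± 0.18, PN-7-5p-18300 read -0.03 ± 0.15 and miR-7-3p-45112 read -0.12 ± 0.07. The probes for the neuronal miR-124, miR-9 and miR-129 were not above background in either RNA. The same held for the 5 probes of the Hox clusters, for miR-10 and miR-196, which mark trunk and limb positions and not the jaws; their median was -0.11. Summed mean densities, with negative ones left out, were 425 in the premolar and 504 in the incisor for the blood cell list. They were 1736 and 1744 for the endothelial list, and 87.7 and 369 for the neural list. The neural sums are far apart although the list's median ratio is near 0; they add up mostly probes that were not above background, before the channels were normalised.

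The mature pig probes with the highest spot signals were ssc-miR-1308, ssc-miR-16, ssc-miR-214, ssc-miR-125b and ssc-miR-130a. Of these, ssc-miR-125b, of a family known in stem and progenitor cells, had densities of 7010, 7918, 7412 and 7257 in the premolar, against 6109, 6220, 6369 and 5857 in the incisor (0.47 ± 0.07). The others are described above. Spot signals of different probes also reflect the probe, so they do not rank the microRNAs by amount.

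On the day-40 array, which pairs the same tooth types with the same dyes but with other RNAs, 17 of 571 detected probes (2.98%) were higher in the premolar by the 2-fold criterion and 4 (0.701%) lower. Of the 25 probes higher on day 60, 9 were also higher on day 40, which is 36.0% of the day-60 and 52.9% of the day-40 probes, and miR-218-5p-18206 was lower on both days. Across the 374 probes detected on both arrays, the ratios correlated with r = 0.57, a figure that includes anything the dye does alike on both arrays. Of the 25, 16 had all 4 spots above 0 on day 40, and 6 had all 4 below 0. No share over all detected probes is given for these 4-spot counts of day 40. By the mean of the spots, 17 of the 25 were above 0 on day 40, against 51.3% of the 378 probes.

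The miR-133 probes, which are not separate measurements, were higher in the premolar on both days. ssc-miR-133b read 3.49 ± 0.14 on day 40 and 3.10 ± 0.21 on day 60. ssc-miR-133a read 3.13 ± 0.04 on day 40 and 2.73 ± 0.09 on day 60. ssc-miR-127 read 1.58 ± 0.06 on day 40 and 1.61 ± 0.09 on day 60. The DLK1-DIO3 probes PN-377-3p-18696 (1.68 ± 0.14), PN-300-3p-13997 (1.43 ± 0.16) and PN-381-3p-1991 (1.42 ± 0.08) were higher on day 40 too, with smaller ratios than on day 60. Probes for miR-214-5p, miR-130a and miR-210 were close to even on day 40, at -0.07 ± 0.16, 0.11 ± 0.06 and -0.08 ± 0.18.

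The miR-15a and miR-195 probes went the other way on day 40. ssc-miR-195 read -0.64 ± 0.13 and ssc-miR-15a read -0.97 ± 0.15, and the detected probes with the AGCAGCA seed had a median of -0.46 on day 40, against 1.33 on day 60. With 1 RNA at each day this difference was not tested.

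Another array holds a premolar RNA, of day 50, with the dyes exchanged and a day-60 canine RNA as its partner. On it, 16 of the 25 probes read above 0 for the premolar over the canine, and 8 read above 1. Of the 378 probes, 53.2% read higher in the canine, and no share above 1 is given for them. The miR-133 probes read from 2.82 to 3.08, PN-381-3p-1991 read 2.81 ± 0.18, PN-300-3p-13997 read 2.70 ± 0.17, ssc-miR-127 read 1.28 ± 0.06 and miR-214-5p-15474 read 1.24 ± 0.11. These probes read higher in the premolar RNA on this array and on the day-60 one. PN-377-3p-18696 read -1.59 ± 0.15 on that array, PN-200a-3p-145 read -1.14 ± 0.09 and ssc-miR-195 read -0.78 ± 0.06. The partner's tooth type, the premolar's day and the dye all differ between this array and the day-60 one, so the part of the dye was not tested.

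**Figure D4:**
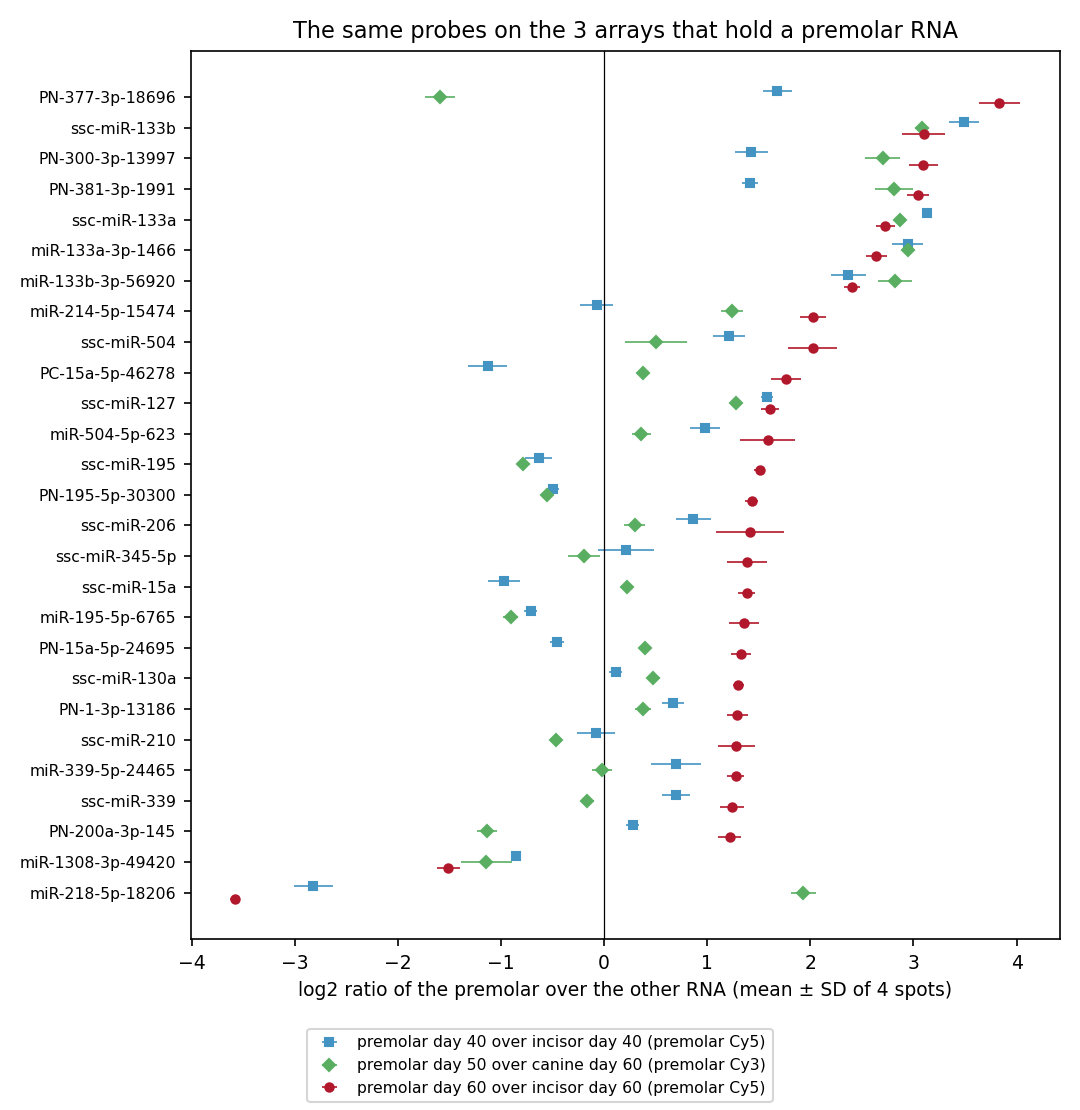
Log2 ratio of a premolar RNA over the other RNA of its array for the 27 probes, as the mean ± SD of 4 spots, on day 40 against the incisor (squares), day 50 against the day-60 canine (diamonds, premolar in Cy3) and day 60 against the incisor (circles). The miR-133 probes lie between 2.37 and 3.49 on all of them, while the miR-15a and miR-195 probes lie below 0 on day 40 and above 1 on day 60.

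The same probes were read in the right-hand column of the other arrays. The right-hand RNA read higher for 20 of the 25 on the array of the day-60 and day-50 molars, whose headings and labels disagree on the dyes, against 46.3% of all 378. The count was 17 for the premolar over the incisor of day 40 (51.3% of all), 15 for the molar over the canine of day 40 (57.4%) and 9 on the array of the day-60 canine and day-50 premolar (53.2%). It was 19 (45.5% of all) on an array of an incisor in the right-hand column and a day-50 canine in the left. The title of that array gives day 60 for the incisor and its other labels give day 50, so the incisor's day is uncertain. Its ratios of incisor over canine were 4.17 for PN-377-3p-18696, 3.76 for ssc-miR-195, 3.43 for ssc-miR-16, 2.99 for ssc-miR-130a and 1.36 for ssc-miR-15a. The miR-133 probes read from -1.58 to -1.03 there. Only the miR-339 probes, ssc-miR-339 and miR-339-5p-24465, read above 0 for the right-hand column on all 5 other arrays, with 0.16 and 0.02 as their lowest values. The part of the dye in the day-60 ratios of miR-15a, miR-16, miR-195, miR-130a, miR-339 and PN-377-3p-18696 was not tested.

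The authors' deposited table holds 1 processed log2 value per probe and array. Set against the ratios computed here, its values for this array ran as premolar over incisor, with r = 0.90 over the 378 detected probes and a median of 0.08; how they were scaled and centred is not given in the sources used here. All 27 listed probes had the same sign in the authors' deposited table, and all 25 of the higher ones were at 1 or above. Those values come from the same array, so the listing largely requires the same sign. At a threshold of 1 the authors' deposited table put 46 detected probes higher and 11 lower in the premolar, against 25 and 2 by the 4-spot criterion. In the authors' deposited table PN-377-3p-18696 stood at 4.68, ssc-miR-133b at 4.02, ssc-miR-195 at 1.40 and miR-1308-3p-49420 at -1.93.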

How the data were processed

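Small RNAs of each germ were tailed, tagged with Cy3 or Cy5 and hybridised in pairs, per the labels' protocols. The deposited spot intensities are linear, with no background removed, per the file headers; commas inside numbers were taken out. The authors' processed log2 values, deposited in a series table, were an alternative only.

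For each channel the blank spots gave a smooth background (robust loess, span 0.3) that was taken off, followed by normexp with an offset of 50 and loess within the array over the small RNA spots (limma 3.58.1, R 4.3.3). The 4 spots of a probe were averaged. Scripts were tested on simulated data. With 1 RNA per condition no test was made. Detection was set at 3 SD of the blanks and listing at 2-fold in all 4 spots. For a probe not above background in one RNA, the bound is set against the lowest level detected there or the probe's own, whichever is higher. Lists match probes by microRNA name across all probe kinds. The text names all mature pig probes listed, the 5 highest and the lowest of the other listed probes, the 2 highest and 2 lowest detected probes of each list, the 3 with the largest spot SD and the 5 brightest mature pig probes. Other probes named were picked with their values in view. Members and lists were chosen with earlier results of these data known. The number of arrays limits the precision.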

Additional observations from a re-analysis of the deposited data

Results flagged for a closer look

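6 probes higher in the premolar on day 60 read lower in the premolar in all 4 spots on day 40, a difference between days that was not tested. On day 40, PC-15a-5p-46278 read -1.13, ssc-miR-15a -0.968, miR-195-5p-6765 -0.712, ssc-miR-195 -0.636, PN-195-5p-30300 -0.497 and PN-15a-5p-24695 -0.459, as log2 premolar over incisor. On day 60 these probes read 1.76, 1.38, 1.36, 1.51, 1.43 and 1.33, in the same order. All 6 carry the seed AGCAGCA, and probes of one name share most of their target, so they are not separate findings.

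The 4 control probes for 5S ribosomal RNA, which take part in no comparison above, read a mean of -0.955 on this array, from -1.44 to -0.50, and so lower in the premolar. Median centring gave a mean of -0.68. On the other arrays the same probes averaged from -0.85 to 1.33 for the right-hand over the left-hand column.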

How the results depend on the processing

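The 27 listed probes were recomputed under 7 other settings each. None of these 189 ratios changed sign, and 84 stayed within the SD of the 4 spots. All settings use the same array on which the probes were listed, so a kept sign is largely what the listing requires. The count of probes higher in the premolar ran from 20 (no background removed) to 33 (median centring), against 25, and 2 were lower under every setting except the authors' processed values, which gave 46 higher and 11 lower at a mean of 1 or more, with no spots to check. Medians of the 12 lists were less steady: 54 of 107 moved by more than their spread over the 4 spots, and the cause was not tested. With median centring the medians were 0.067 for DLK1-DIO3, 0.44 for let-7, 1.17 for miR-15 and miR-16, 0.035 for miR-181, -0.072 for mesenchymal, 0.26 for endothelial and -0.10 for neural. With no background removed, they were 0.37 for muscle, 0.67 for miR-15 and miR-16 and -0.13 for miR-181. With a normexp offset of 16 they were 0.95 for muscle, 0.22 for DLK1-DIO3, 0.85 for miR-15 and miR-16, -0.25 for Hox, 0.093 for endothelial and -0.043 for neural. With the blank median subtracted and a floor of 16 they were 1.38 for muscle, 0.038 for DLK1-DIO3, 0.47 for miR-15 and miR-16, -0.38 for miR-181, 0.00 for Hox, 0.0071 for endothelial and -0.00045 for neural. With loess on probes detected in both RNAs they were 0.083 for DLK1-DIO3, -0.030 for miR-17, 0.82 for miR-15 and miR-16, -0.084 for mesenchymal, 0.10 for endothelial and -0.071 for neural. By the authors' processed values they were 2.15 for muscle, 0.66 for DLK1-DIO3, 0.39 for let-7, 0.21 for miR-17, 0.79 for miR-15 and miR-16, -0.53 for miR-181, 0.35 for epithelial, -0.084 for mesenchymal, -0.66 for Hox, -0.062 for endothelial and -0.15 for neural. Over mature pig probes alone they were 0.033 for muscle, 0.22 for DLK1-DIO3, -0.060 for miR-17, 0.20 for miR-15 and miR-16, -0.087 for epithelial, -0.062 for mesenchymal and -0.12 for endothelial. Over detected probes alone they were 2.52 for muscle, 0.29 for DLK1-DIO3, 1.33 for miR-15 and miR-16, -0.33 for miR-181, -0.058 for mesenchymal, 0.11 for endothelial and 0.017 for neural. The muscle, DLK1-DIO3, let-7, and miR-15 and miR-16 medians were above 0 under every setting, and the mesenchymal median was below 0 under every one. The muscle median over mature pig probes, 0.033, is the reading of ssc-miR-133a*, which was not above background, so its sign says little. The miR-181, miR-17, epithelial, endothelial, neural and blood cell medians changed sign under at least 1, and the Hox median reached 0. The blood cell median still moved by less than its spread in all of them.

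No paired analysis was possible because each condition has 1 RNA; for the same reason no replicate was left out. Tooth type and dye cannot be told apart on this array. Ratios of probes near background are pulled towards 0 by the offset, so those of dim probes understate a difference.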
